A study of Mus musculus with 6 samples.

Results

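The enzymes that make, balance and degrade the building blocks of DNA were followed through 9 mouse genes, taken by symbol from the 18057 genes of the deposited expression table: Rrm1, Rrm2, Rrm2b, Tyms, Dut, Dctd, Dtymk, Samhd1 and Shmt1. All 9 were present in the table and all 9 passed the filter on low values, a mean of at least 1 FPKM. FPKM are fragments per kilobase of the length the authors used for a gene, scaled to the depth of the library. That length is not the genomic span: it was 3997 bases for Rrm1, which spans 28.1 kb. The values came from RNA sequencing of 4T1, a line of mouse breast cancer cells. The 3 libraries of the control group were from cells given DMSO, a solvent, and the 3 libraries of the treated group were from cells given BRQ. The series title speaks of inhibiting DHODH, a mitochondrial enzyme that makes orotate for new pyrimidines. The letters DHO stand in all 6 sample titles without an explanation, and neither dose nor duration was given in the sources used here. The labels number the replicates but do not say whether they came from separate cultures, so p-values measure only the spread between these libraries, which may be technical.

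Deoxynucleotides are made by ribonucleotide reductase, which removes an oxygen from the ribose of ribonucleoside diphosphates. Its large subunit is encoded by Rrm1 and its small subunit by Rrm2, which is made in S phase, or by Rrm2b, known as the p53-inducible subunit that serves cells outside S phase. Thymidylate needs further steps: Dctd deaminates dCMP to dUMP, Dut hydrolyses dUTP to dUMP, Tyms methylates dUMP to dTMP, Shmt1 supplies the one-carbon unit for that reaction through folate, and Dtymk phosphorylates dTMP to dTDP. Samhd1 works in the other direction and cleaves deoxynucleoside triphosphates. Because uridine nucleotides are the source of dUMP and cytidine nucleotides, DHODH lies upstream of the pyrimidine branch of these reactions.

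Upstream sequence is shown for 4 of the genes, since Rrm1 and Rrm2 encode partner subunits whose transcripts moved in opposite directions and Dtymk and Shmt1 had the largest rises of the 9. Each window runs from 250 bases before to 50 bases after the annotated start, 5′ to 3′ on the gene's own strand, and was taken from RefSeq on build GRCm38.p6, matched by symbol. The windows lie at chr7:102441445-102441744 on the plus strand for Rrm1, at chr12:24708004-24708303 on the plus strand for Rrm2, at chr1:93801885-93802184 on the minus strand for Dtymk and at chr11:60811216-60811515 on the minus strand for Shmt1. Capitals mark CCAAT, the motif of NF-Y, or its reverse complement ATTGG.
Rrm1: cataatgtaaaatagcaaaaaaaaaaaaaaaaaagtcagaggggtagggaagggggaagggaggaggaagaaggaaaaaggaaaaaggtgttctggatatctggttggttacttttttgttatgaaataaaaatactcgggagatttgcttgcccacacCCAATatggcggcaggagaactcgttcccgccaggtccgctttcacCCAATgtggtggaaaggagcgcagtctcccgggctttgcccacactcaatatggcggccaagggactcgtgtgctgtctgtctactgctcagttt
Rrm2: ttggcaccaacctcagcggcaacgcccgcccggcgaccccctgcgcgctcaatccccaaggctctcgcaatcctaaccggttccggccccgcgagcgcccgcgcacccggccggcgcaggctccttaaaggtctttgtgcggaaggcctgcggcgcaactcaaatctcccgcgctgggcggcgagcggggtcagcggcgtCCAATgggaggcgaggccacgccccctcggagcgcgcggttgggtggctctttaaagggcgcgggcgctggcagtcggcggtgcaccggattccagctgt
Dtymk: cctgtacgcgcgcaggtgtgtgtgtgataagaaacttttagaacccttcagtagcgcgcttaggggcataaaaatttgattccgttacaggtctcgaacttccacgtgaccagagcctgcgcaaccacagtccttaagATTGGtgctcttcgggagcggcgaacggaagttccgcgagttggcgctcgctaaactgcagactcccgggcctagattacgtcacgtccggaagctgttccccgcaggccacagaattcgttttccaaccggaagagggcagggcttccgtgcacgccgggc
Shmt1: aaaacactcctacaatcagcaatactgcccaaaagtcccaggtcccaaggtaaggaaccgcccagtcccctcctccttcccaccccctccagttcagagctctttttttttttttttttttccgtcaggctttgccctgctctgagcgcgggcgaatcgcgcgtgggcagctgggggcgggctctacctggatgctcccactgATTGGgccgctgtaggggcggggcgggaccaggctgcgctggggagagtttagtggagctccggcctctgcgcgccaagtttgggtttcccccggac

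Of the 9 genes, 8 had a window, and Rrm2b had none. CCAAT occurred on either strand in 37.4% of all 32851 mouse windows of this length, and in the windows of Rrm1, Rrm2, Dtymk and Shmt1. Dctd had 3 windows, of which 2, which overlap and share the same sites, held CCAAT and GGGCGG and the other held neither. In Rrm1 it stood at positions -91 to -87 and -45 to -41 relative to the start, and in Rrm2 at -50 to -46, so the gene that fell and the gene that rose both held it. In Shmt1 it stood at -47 to -43 and in Dtymk at -112 to -108, both on the reverse strand. GGGCGG, an Sp1 motif, occurred in 35.7% of all windows and in those of Rrm2, Shmt1, Tyms, Dut and Samhd1. Neighbouring copies of it overlap in the Shmt1 window. No window of the 8 genes held any of 4 strict forms of the E2F motif on either strand (TTTCCCGC, TTTGGCGC, TTTCGCGC and TTTGCCGC), which 2.26% of all windows held. Looser forms were not counted. Among the windows shown, forms short of the first T stand in Dtymk (TTGGCGC) and Rrm1 (TTCCCGC). On the reverse strand such forms stand in Shmt1 (TTGGCGC) and Rrm2 (TTGCCGC). The window of Rrm2 had a GC content of 71.3%, that of Rrm1 47.0%, and the median of all windows was 52.7%.

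Depth was close to even, with 31048375 reads recovered for DMSO replicate 2, the lowest, and 34169860 for BRQ replicate 3, the highest. The 9 genes had 1026 to 13191 reads per library. Their coefficient of variation within a group ran from 0.396% to 7.75%, and was under 5% for 8 of the 9 genes under DMSO and for 9 of 9 under BRQ. Epithelial markers were present in all libraries, with mean levels under DMSO and BRQ of 609 and 404 FPKM for Krt8, 178 and 170 for Cdh1, and 77.2 and 81.8 for Epcam. The 5 epithelial markers summed to 1459 to 1492 FPKM under DMSO and 1119 to 1151 under BRQ, without overlap, and 4 of the 5 were called lower and 1 higher (4 and 0 after median-ratio scaling, 5 and 0 after quantile normalization). They thus moved with the treatment beside the 9 enzymes, and their part in the results was not tested. BRQ replicates 2 and 3 stood apart in transcripts of other cell types. The 16 macrophage markers summed to 36.9 to 39.9 FPKM under DMSO, to 72.1 in BRQ replicate 1, and to 143 and 138 in BRQ replicates 2 and 3. The 16 hepatocyte markers summed to 22.6 to 26.2 FPKM under DMSO, to 20.5 in BRQ replicate 1, and to 1.14 and 0.679 in BRQ replicates 2 and 3. No marker of lymphocytes, endothelium or erythroid cells reached a mean of 1 FPKM, and 1 of 5 fibroblast markers did, Pdgfra. Because of those libraries, results are also given for BRQ replicate 1 without the other 2 BRQ libraries, and it is then assumed to vary like the DMSO libraries.

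BRQ changed the transcripts of all 9 enzymes in this test, 7 upward and 2 downward, with the largest change at 1.90-fold. Shmt1, Dtymk and Dut rose most, Rrm2b, Samhd1, Rrm2 and Tyms rose less, and Rrm1 and Dctd fell. Calls were made with limma on log2(FPKM + 1), adjusted over 10552 tested genes, at an adjusted p of 0.05. By the same rule 82.4% of all tested genes were called, 48.7% higher and 33.7% lower, so being called did not set these 9 genes apart. For all 9 the 3 BRQ values lay wholly on one side of the 3 DMSO values, as they did for 83.7% of all tested genes (49.0% with BRQ above, 34.8% with BRQ below). The median log2 fold change was 0.41 over the 9 genes and 0.12 over all tested genes. After median-ratio scaling the median of all genes was 0.0046, and after quantile normalization it was -0.0084. With the median of all genes taken off, the 9 values ran from -0.39 for Dctd to 0.77 for Shmt1, and kept their signs. In such bulk libraries, fewer cells that express a gene and less RNA of it per cell cannot be told apart.

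**Figure D1:**
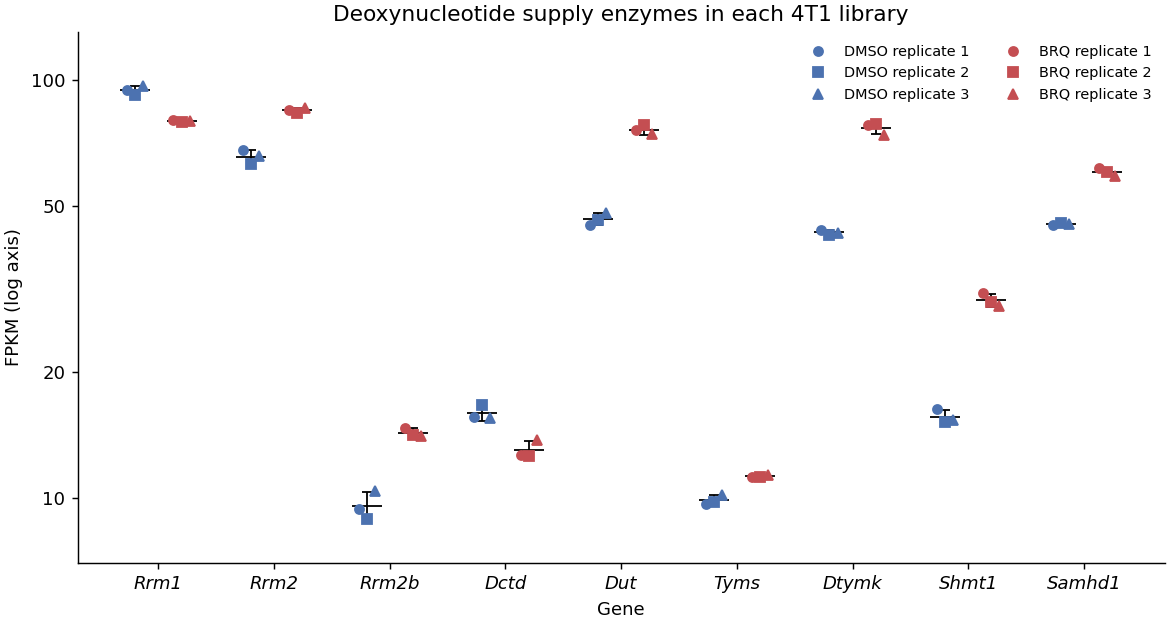
FPKM of the 9 genes in each library on a log axis, with DMSO in blue and BRQ in red, marker shapes for the replicate number, and bars for the mean and SD of 3 libraries. In every gene the 2 groups are separate, with BRQ below DMSO in Rrm1 and Dctd and above it in the other 7.

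The subunits of ribonucleotide reductase did not move together. Rrm1 (Entrez 20133, chromosome 7), the large subunit that holds the catalytic and regulatory sites, measured 94.4, 91.8 and 96.8 FPKM in DMSO replicates 1 to 3 and 80.2, 79.2 and 79.7 in BRQ replicates 1 to 3. Every BRQ library was below every DMSO library, and the BRQ libraries were the more alike. The mean fell by 15.6%, from 94.3 ± 2.49 to 79.7 ± 0.533 FPKM (SD, n = 3), with a log2 fold change of -0.24 (SE 0.0287, limma adjusted p = 2.35e-05). Among all tested genes, 73.2% had a larger log2 fold change.

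Rrm2 (Entrez 20135, chromosome 12), the S phase small subunit that carries the iron centre and tyrosyl radical, measured 67.9, 62.8 and 65.7 FPKM under DMSO and 84.6, 83.4 and 85.5 under BRQ. Its groups were separate in the opposite direction. The mean rose 1.29-fold, from 65.5 ± 2.56 to 84.5 ± 1.06 FPKM (SD, n = 3; limma log2 fold change 0.36, standard error 0.0336, adjusted p = 3.34e-06). Fold changes in these data differ with the genomic span of a gene, and Rrm2 spans only 5.91 kb, against a median of 23.2 kb over tested genes. The 500 tested genes nearest to Rrm2 in span had a median log2 fold change of 0.46, and those nearest to Dctd one of -0.12. Set against its own 500 genes, the Rrm2 log2 fold change was -0.10, a value with no test, so its rise was smaller than that of genes of like span.

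Rrm2b (Entrez 382985, chromosome 15), the alternative small subunit, measured 9.41, 8.92 and 10.4 FPKM under DMSO and 14.7, 14.1 and 14.0 under BRQ. It was the least abundant of the 3 subunits in every library, and its groups did not overlap. The mean rose 1.50-fold, from 9.57 ± 0.742 to 14.3 ± 0.368 FPKM (SD, n = 3; limma log2 fold change 0.54, standard error 0.0566, adjusted p = 9.17e-06). Relative to genes of like span (37.4 kb) the value was 0.50. Rrm2b shares up to 734 exonic bases with an antisense gene, Gm49085, and no strand setting was given, so reads of the pair cannot be told apart.

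Within each library these shifts changed the balance of the subunits. The ratio of Rrm2 to Rrm1 FPKM was 0.719, 0.684 and 0.679 in the DMSO libraries and 1.05, 1.05 and 1.07 in the BRQ libraries. Rrm1 was thus the more abundant transcript in every DMSO library and Rrm2 in every BRQ library, per length. The 500 tested genes nearest in span to Rrm2 had a median log2 fold change of 0.46, those nearest to Rrm1 0.10. The ratio takes no account of that difference. The mean ratio went from 0.694 ± 0.0218 to 1.06 ± 0.0114 (SD, n = 3), a difference of 0.367 (exact permutation test, two-sided, p = 0.1). The share of Rrm2b in the summed FPKM of both small subunits was 12.2%, 12.4% and 13.6% under DMSO and 14.8%, 14.5% and 14.1% under BRQ. It differed by 1.73 percentage points, 12.7% ± 0.779 against 14.5% ± 0.365 (SD, n = 3; exact permutation test, two-sided, p = 0.1). With 3 libraries against 3, 0.1 is the smallest p this test can give. Rrm2 therefore remained the main small subunit transcript in both groups.

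**Figure D2:**
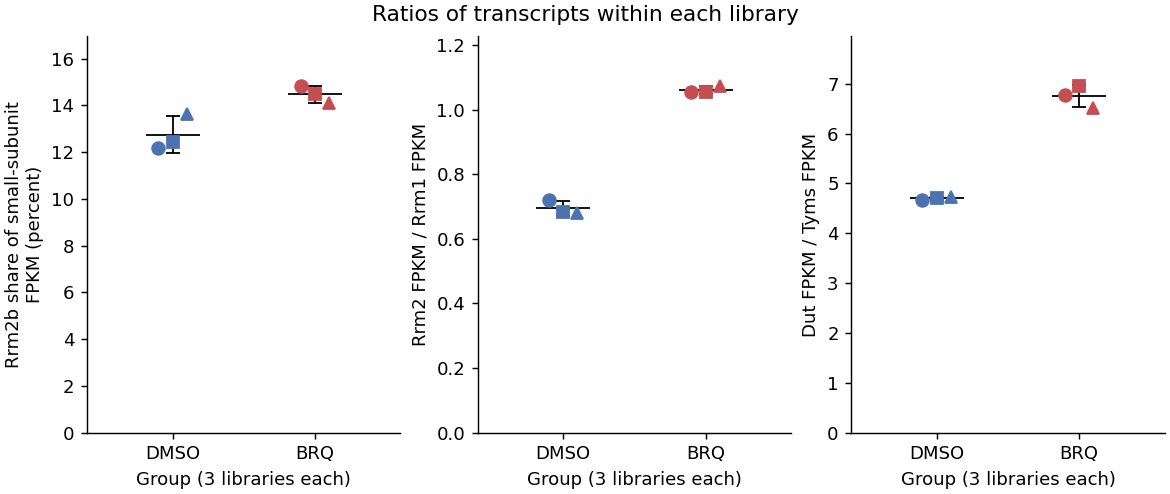
Ratios of FPKM within each library, with 1 point per library, blue for DMSO and red for BRQ, and bars for the mean and SD of 3 libraries. The ratio of Rrm2 to Rrm1 passes from below 1 to above 1, the Rrm2b share moves by 1.73 percentage points, and the ratio of Dut to Tyms goes from 4.70 to 6.75. The ratios take no account of genomic span.

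Dctd and Dut, which each yield dUMP, moved in opposite directions. Dctd (Entrez 320685, chromosome 8), which supplies dUMP from dCMP, measured 15.6, 16.7 and 15.5 FPKM under DMSO and 12.7, 12.6 and 13.7 under BRQ. The highest BRQ library stayed below the lowest DMSO library. The mean fell by 18.3%, from 15.9 ± 0.644 to 13.0 ± 0.634 FPKM (SD, n = 3; limma log2 fold change -0.27, standard error 0.0494, adjusted p = 0.000488). Dctd was the longest of the 9 genes on the chromosome (54.1 kb), and relative to genes of like span its value was -0.16.

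Dut (Entrez 110074, chromosome 2), the dUTPase that also keeps uracil out of DNA, measured 45.1, 46.1 and 48.1 FPKM under DMSO and 75.9, 78.2 and 74.1 under BRQ. The groups lay far apart relative to their spread. The mean rose 1.64-fold, from 46.4 ± 1.52 to 76.1 ± 2.05 FPKM (SD, n = 3; limma log2 fold change 0.70, standard error 0.0348, adjusted p = 3.73e-08). Relative to genes of like span (11.4 kb) the value was 0.33.

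Tyms (Entrez 22171, chromosome 5), the target of fluoropyrimidine drugs, measured 9.67, 9.79 and 10.2 FPKM under DMSO and 11.2, 11.2 and 11.4 under BRQ. Its groups were separate but close. The mean was 9.88 ± 0.268 FPKM under DMSO and 11.3 ± 0.0827 under BRQ (SD, n = 3), 1.14-fold higher, the smallest change of the 9 genes. The log2 fold change was 0.17 (SE 0.0439, limma adjusted p = 0.00409), which is 0.06 above the median of all tested genes. The call was lost after median-ratio scaling (0.06, adjusted p = 0.251), after quantile normalization (0.06, adjusted p = 0.212) and with BRQ replicate 1 alone (0.17, adjusted p = 0.0635). Over all alternative fits its adjusted p ran from 0.00138 to 0.251, and relative to genes of like span its value was -0.18. A pseudogene is named after Tyms, and reads may be shared with it.

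Dut thus rose against its downstream partner in the same library. The ratio of Dut to Tyms FPKM was 4.66, 4.71 and 4.72 under DMSO and 6.77, 6.96 and 6.52 under BRQ. It went from 4.70 ± 0.0323 to 6.75 ± 0.220 (SD, n = 3), a difference of 2.05 (exact permutation test, two-sided, p = 0.1, the smallest possible).

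Dtymk (Entrez 21915, chromosome 1), the kinase through which both newly made and salvaged dTMP must pass, measured 43.8, 42.6 and 43.1 FPKM under DMSO and 78.0, 78.2 and 73.7 under BRQ. Even its lowest BRQ library was well above the DMSO libraries. The mean rose 1.78-fold, from 43.2 ± 0.592 to 76.6 ± 2.56 FPKM (SD, n = 3; limma log2 fold change 0.81, standard error 0.0331, adjusted p = 1.09e-08). Only 12.1% of tested genes had a larger log2 fold change, and relative to genes of like span (9.36 kb) the value was 0.39.

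Shmt1 (Entrez 20425, chromosome 11), the cytosolic serine hydroxymethyltransferase, measured 16.3, 15.2 and 15.4 FPKM under DMSO and 30.9, 29.4 and 28.8 under BRQ. This was the largest rise of the 9 genes, 1.90-fold, from 15.6 ± 0.612 to 29.7 ± 1.08 FPKM (SD, n = 3; limma log2 fold change 0.89, standard error 0.0435, adjusted p = 3.45e-08). Only 9.88% of tested genes had a larger log2 fold change, and relative to genes of like span (23.6 kb) the value was 0.72. Shmt1 is also abundant in liver, and 6 of the 16 hepatocyte markers reached a mean of 1 FPKM. Its level was highest in BRQ replicate 1, whose hepatocyte marker sum of 20.5 FPKM was near that of the DMSO libraries. With that library alone against DMSO the log2 fold change of Shmt1 was 0.94. The part of hepatocyte transcripts in the change of Shmt1 was not tested. Up to 184 exonic bases of Shmt1 are shared with Smcr8 on the opposite strand.

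Samhd1 (Entrez 56045, chromosome 2), the triphosphohydrolase that limits deoxynucleotide pools and is well known from macrophages, measured 45.03, 45.4 and 45.3 FPKM under DMSO and 61.5, 60.3 and 58.9 under BRQ. The DMSO libraries were nearly identical and all BRQ libraries were higher. The mean rose 1.33-fold, from 45.2 ± 0.179 to 60.2 ± 1.28 FPKM (SD, n = 3; limma log2 fold change 0.41, standard error 0.0297, adjusted p = 5.88e-07). Relative to genes of like span (37.7 kb) the value was 0.38. The macrophage markers also summed higher under BRQ, and their part in the rise of Samhd1 was not tested. Of the 16 markers 6 reached a mean of 1 FPKM, and all 6 were called higher (5 after median-ratio scaling, 4 after quantile normalization). Among these 6, only Cd68 and Cd14 had every BRQ library above every DMSO library. Cd68 went from 21.1 ± 2.36 to 54.9 ± 5.70 FPKM and Cd14 from 6.35 ± 0.262 to 13.8 ± 1.35 (SD, n = 3). Lyz2 stood at 4.44 to 5.38 FPKM under DMSO and at 3.56, 35.4 and 36.4 in BRQ replicates 1 to 3, and Ctss at 1.99 to 2.75 and at 2.40, 18.1 and 19.6. Adgre1 stood at 0.00876 to 0.0613 FPKM under DMSO and at 0.0436, 0.179 and 0.235 in BRQ replicates 1 to 3. Csf1r stood at 0.348 to 0.447 under DMSO and at 0.369, 0.489 and 0.707 in those libraries. Both were thus under 1 FPKM in every library, with their highest values in BRQ replicate 3. With BRQ replicate 1 alone, where the marker sum was lowest among the BRQ libraries, the log2 fold change of Samhd1 was 0.43.

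**Figure D3:**
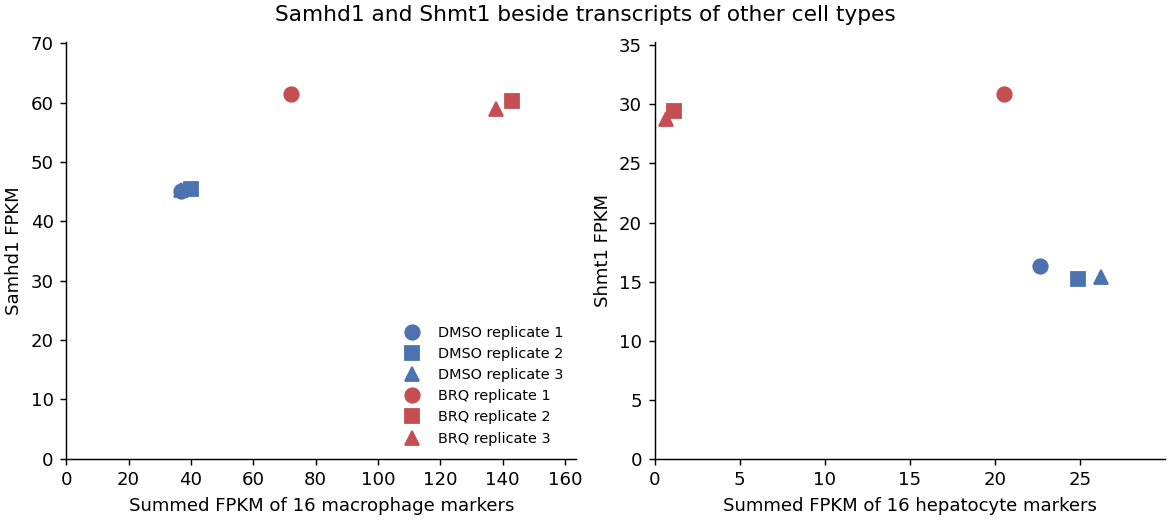
FPKM of Samhd1 against the summed FPKM of 16 macrophage markers (left) and of Shmt1 against that of 16 hepatocyte markers (right), 1 point per library, with blue for DMSO, red for BRQ and marker shapes for the replicate. BRQ replicate 1 has the highest level of both enzymes among the BRQ libraries, with a macrophage sum of 72.1 and a hepatocyte sum of 20.5 FPKM.

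The calls were repeated under other settings. With BRQ replicate 1 alone, 8 of the 9 were called (6 higher, 2 lower), beside 73.5% of all tested genes (43.4% higher, 30.1% lower). Median-ratio scaling also left 8 called, beside 82.8% of all tested genes, with 41.6% higher and 41.2% lower. Quantile normalization left 8 as well, beside 82.3% of all tested genes, with 40.3% higher and 42.0% lower. In each of these settings the lost call was that of Tyms. Under quantile normalization the log2 fold changes went to 0.13 for Rrm2, 0.16 for Samhd1, 0.46 for Dut and -0.45 for Rrm1. Median-ratio scaling gave 0.24 for Rrm2 and -0.37 for Rrm1. The other 8 genes kept their call and direction in all 14 alternative fits.

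**Figure D4:**
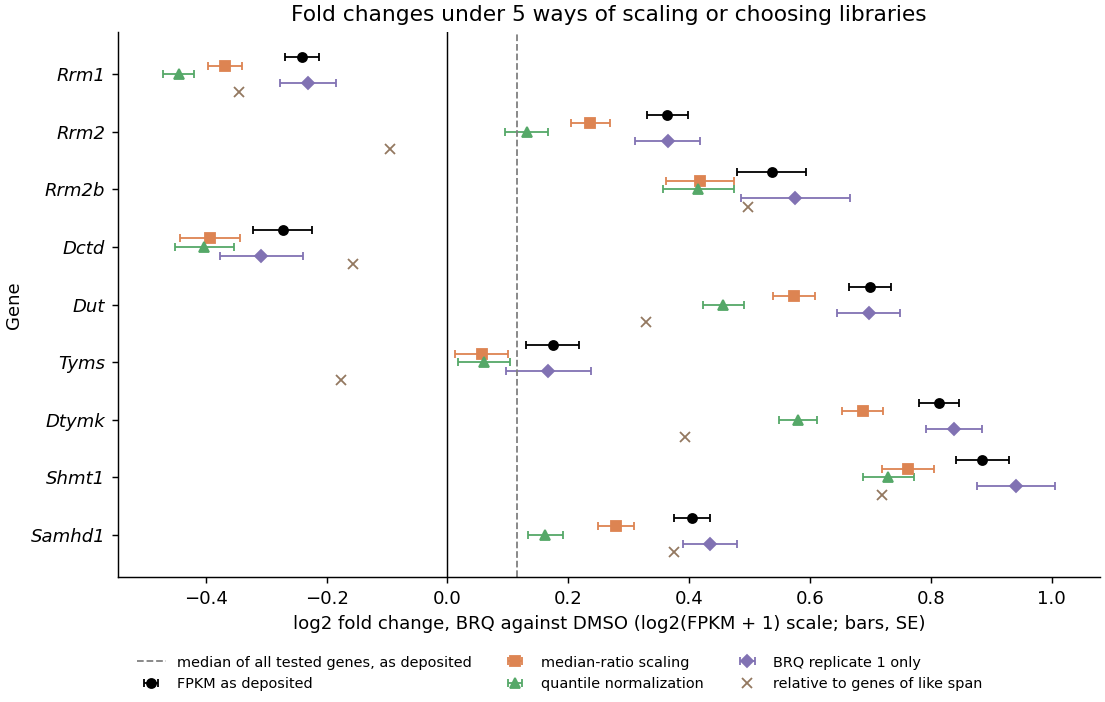
Log2 fold changes of the 9 genes, BRQ against DMSO on the log2(FPKM + 1) scale, under 5 ways of scaling or choosing libraries, with SE where a fit gave one. Rrm1 and Dctd stay below 0 in all 5. Rrm2 and Tyms pass to -0.10 and -0.18 relative to genes of like genomic span, and the other 5 stay above 0. The dashed line is the median of all tested genes, 0.12.

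The order of transcript levels per length changed between the groups. Under DMSO it ran Rrm1, Rrm2, Dut, Samhd1, Dtymk, Dctd, Shmt1, Tyms and Rrm2b, from 94.3 to 9.57 FPKM. The ranges of Dut and Samhd1, of Dctd and Shmt1, and of Tyms and Rrm2b overlapped. Under BRQ it ran Rrm2, Rrm1, Dtymk, Dut, Samhd1, Shmt1, Rrm2b, Dctd and Tyms, from 84.5 to 11.3 FPKM, and only the ranges of Dtymk and Dut overlapped among neighbours. Shmt1, level with Dctd under DMSO, stood above it under BRQ, and Tyms became the least abundant of the 9.

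The genes around these enzymes were read from lists by role. In 6 lists of deoxynucleotide and folate metabolism, 54 of 57 genes were tested, and 37 were higher and 9 lower under BRQ, that is 68.5% and 16.7%. Their median log2 fold change was 0.34. Among all tested genes 48.7% were higher and 33.7% lower, with a median of 0.12, and the counts of each list below stand beside those shares. Under median-ratio scaling 33 were higher and 12 lower (61.1% and 22.2%), beside 41.6% and 41.2% of all tested genes. Under quantile normalization 33 were higher and 13 lower (61.1% and 24.1%), beside 40.3% and 42.0%. With BRQ replicate 1 alone the median log2 fold change of the 54 genes was 0.32, beside 0.10 over all tested genes.

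Reductase is recharged by the thioredoxin and glutaredoxin systems. Of their 4 genes 3 were higher and none lower, with a median of 0.22, but 2 higher and 1 lower after median-ratio scaling and 2 and 2 after quantile normalization. Txn1, thioredoxin itself, rose from 340.2 ± 5.59 to 431 ± 11.5 FPKM (SD, n = 3), and Glrx, glutaredoxin, from 28.6 ± 1.08 to 37.0 ± 0.206. Gsr, glutathione reductase, measured 54.4 ± 1.19 and 51.7 ± 1.85 FPKM and was not called (limma adjusted p = 0.0764).

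In the thymidylate and folate cycle, 15 of 16 genes were tested, 10 were higher and 4 lower, with a median of 0.29. That was 66.7% and 26.7%, beside 48.7% and 33.7% of all tested genes. Shmt2, the mitochondrial counterpart of Shmt1, rose 1.44-fold, from 121 ± 0.644 to 174 ± 0.623 FPKM (SD, n = 3), and the mitochondrial folate transporter gene Slc25a32 rose from 7.27 ± 0.534 to 10.8 ± 0.535. Mthfd2l, a mitochondrial methylenetetrahydrofolate dehydrogenase, fell from 7.16 ± 0.175 to 2.08 ± 0.295 FPKM (log2 fold change -1.41). With BRQ replicate 1 alone the median log2 fold change of this list was 0.22, beside 0.10 over all tested genes.

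Salvage kinases, which phosphorylate deoxynucleosides taken up from outside or released from DNA, divided into 2 higher, 1 lower and 1 not called. Dck, which acts on deoxycytidine and purine deoxynucleosides, rose 2.49-fold, from 16.9 ± 0.449 to 42.1 ± 0.824 FPKM (SD, n = 3; limma log2 fold change 1.27, standard error 0.0363, adjusted p = 1.42e-09). The mitochondrial kinases moved apart: Tk2 rose from 9.78 ± 0.141 to 17.5 ± 0.688 FPKM and Dguok fell from 10.1 ± 1.16 to 6.75 ± 0.201. Tk1, the S phase thymidine kinase whose product passes to Dtymk, measured 62.4, 63.2 and 63.6 FPKM under DMSO and 64.7, 64.0 and 63.1 under BRQ. The Tk1 groups overlapped, and it was not called (log2 fold change 0.02, limma adjusted p = 0.524). After median-ratio scaling and after quantile normalization 2 of the 4 kinases were higher and 2 lower.

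Of 14 nucleotide kinases, which carry the products on to triphosphates, 8 were higher and 3 lower (median 0.46). These were 57.1% and 21.4%, beside 48.7% and 33.7% of all tested genes. Nme3 rose from 8.76 ± 0.449 to 21.6 ± 1.22 FPKM and Guk1, guanylate kinase, from 22.0 ± 1.94 to 41.7 ± 1.21 (SD, n = 3). Ak6, an adenylate kinase, fell from 16.2 ± 1.40 to 8.90 ± 0.158 FPKM. Nme1 rose from 109.6 ± 2.09 to 182 ± 2.58 FPKM, though reads may be shared with its near-identical neighbour Nme2.

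Enzymes that break down deoxynucleotides or clear damaged ones were mostly higher. Of 14 genes 12 were tested, 11 were higher and 0 lower, with a median of 0.60, and 10 and 0 under both scalings. The 11 were 91.7% of those tested, where 48.7% of all tested genes were higher and 33.7% lower. With BRQ replicate 1 alone the median log2 fold change of this list was 0.69, beside 0.10 over all tested genes. Ada, adenosine deaminase, rose 2.78-fold, from 4.30 ± 0.493 to 11.9 ± 0.197 FPKM (SD, n = 3). Itpa, which removes inosine triphosphates, rose from 7.55 ± 0.399 to 19.6 ± 1.82 FPKM, and the phosphorylase gene Pnp from 21.4 ± 1.96 to 46.7 ± 1.53. Dnph1, which hydrolyses a damaged pyrimidine deoxynucleotide, rose from 41.5 ± 1.81 to 82.4 ± 2.04 FPKM. Dctpp1, a pyrophosphatase that cleaves dCTP to dCMP, the substrate of Dctd, rose from 54.6 ± 5.03 to 89.7 ± 3.76.

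Uracil that enters DNA from dUTP is removed by excision, and 3 of 5 genes of that step were higher and 1 lower. Ung, the main uracil glycosylase, rose from 4.34 ± 0.478 to 6.36 ± 0.308 FPKM (log2 fold change 0.47; SD, n = 3), and Smug1 from 2.94 ± 0.392 to 4.96 ± 0.187. Apex1, the nuclease that cuts the site left behind, rose from 57.5 ± 2.44 to 79.6 ± 2.31 FPKM. Tdg, the thymine glycosylase, fell from 6.67 ± 0.603 to 4.36 ± 0.185 (log2 fold change -0.51).

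**Figure D5:**
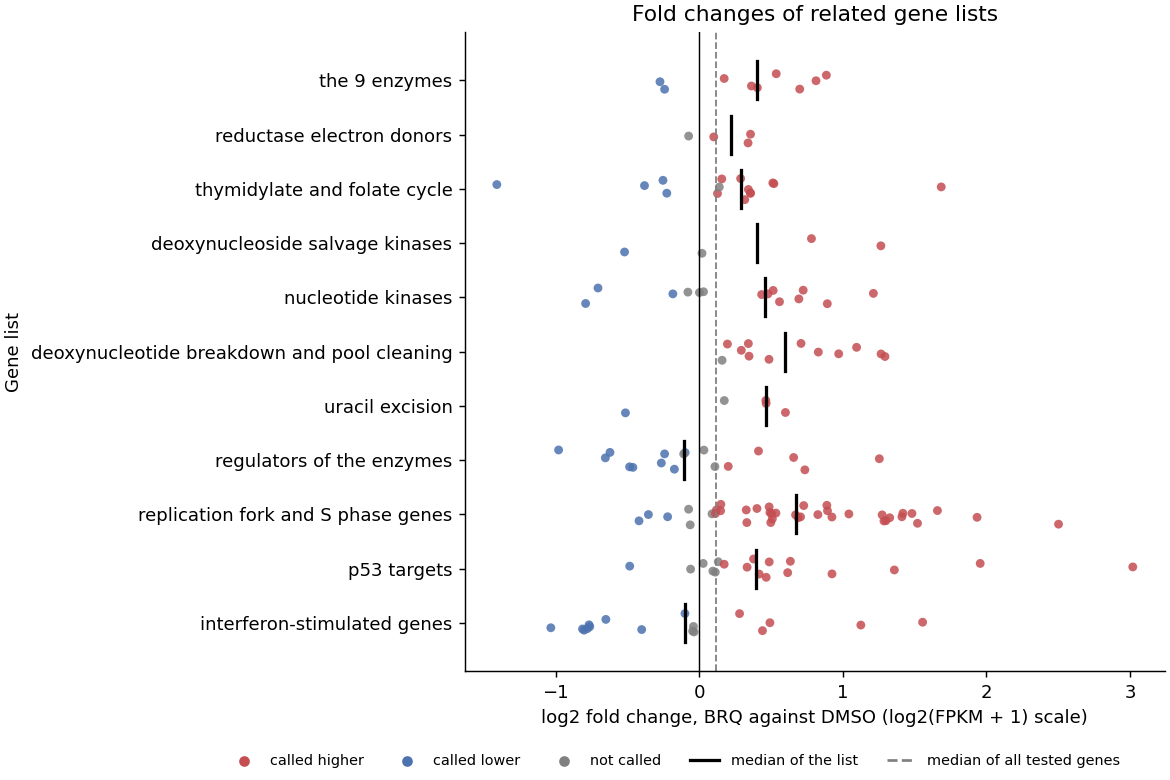
Log2 fold changes of the tested genes of each list, BRQ against DMSO on the log2(FPKM + 1) scale, with red for called higher, blue for called lower and grey for not called, bars for the list medians and a dashed line for the median of all tested genes (0.12). The S phase list has a median of 0.67, the breakdown list 0.60, and the regulators -0.11.

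Known regulators of these enzymes divided. Of 17 genes 5 were higher and 9 lower (29.4% and 52.9%), with a median of -0.11, beside 48.7% and 33.7% of all tested genes. E2f1, an activator of S phase transcription, rose 2.44-fold, from 23.3 ± 0.978 to 56.9 ± 0.767 FPKM (SD, n = 3; limma log2 fold change 1.25, standard error 0.0376, adjusted p = 1.86e-09). Ccnf, cyclin F, which in human cells marks the RRM2 protein for destruction in G2, measured 33.2, 32.9 and 31.8 FPKM under DMSO and 16.9, 15.4 and 15.9 under BRQ. All BRQ libraries were thus lower, with a log2 fold change of -0.98 (SE 0.0436, limma adjusted p = 1.92e-08). The repressor gene E2f7 rose from 9.51 ± 0.854 to 15.6 ± 1.15 FPKM, while its relative E2f8 fell from 28.0 ± 0.101 to 17.4 ± 0.556. Cdk2, the S phase kinase, rose from 22.3 ± 0.101 to 37.8 ± 1.39 FPKM. Cdk1 and its partner Ccna2, which phosphorylate Samhd1 in human cells, fell from 54.4 ± 0.950 to 45.9 ± 0.912 and from 123 ± 0.918 to 102 ± 1.85 FPKM.

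Most transcripts of the replication fork and of S phase rose, as Dut, Dtymk and Rrm2 did, while Rrm1 fell and Tk1 was not called. Of 39 genes 33 were higher and 3 lower (84.6% and 7.69%), with a median of 0.67, beside 48.7% and 33.7% of all tested genes. Under both scalings 29 were higher, with 5 lower under median ratios and 7 under quantiles. Ccne1, cyclin E1, rose from 8.59 ± 0.411 to 53.3 ± 0.195 FPKM, Fen1, the flap nuclease, from 27.3 ± 1.58 to 107 ± 0.804, and Pcna, the sliding clamp, from 157 ± 1.82 to 387 ± 2.40 (SD, n = 3). Pola1, the catalytic subunit of polymerase alpha, fell from 20.8 ± 0.482 to 16.0 ± 0.262 FPKM, beside Rrm1 in direction. Most of the 9 enzymes are themselves S phase transcripts, and the part of the share of cells in S phase in their changes was not tested.

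Of 20 targets of p53, the factor that can induce Rrm2b, 18 were tested. Of these 12 were higher, 1 lower and 5 not called, with a median of 0.40. The shares were 66.7% higher and 5.56% lower, beside 48.7% and 33.7% of all tested genes. Btg2 rose 14.5-fold, from 1.10 ± 0.109 to 16.0 ± 0.255 FPKM, and Cdkn1a, the cyclin-dependent kinase inhibitor p21, rose 4.14-fold, from 11.5 ± 0.554 to 47.7 ± 3.34 (SD, n = 3). The rise of Rrm2b was 1.50-fold, and the part of p53 in it was not tested. Trp53 itself fell, from 23.5 ± 0.386 to 20.7 ± 0.654 FPKM (log2 fold change -0.17, limma adjusted p = 0.00192).

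Samhd1 is also known as an interferon-stimulated gene. Of 20 genes of that response 17 were in the table and tested, 5 were higher and 9 lower, with a median of -0.10. That was 29.4% and 52.9%, beside 48.7% and 33.7% of all tested genes. Irf7, a transcription factor of the response, rose from 288 ± 0.634 to 630 ± 5.33 FPKM and Trex1, a DNA exonuclease, from 10.2 ± 0.153 to 31.9 ± 2.45 (SD, n = 3). Rsad2 and Ifih1 fell, from 36.7 ± 1.53 to 17.8 ± 4.22 and from 20.4 ± 0.992 to 11.2 ± 0.119 FPKM. The list was thus mixed, and the part of the interferon response in the rise of Samhd1 was not tested.

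The tested genes most like each enzyme were found by the root mean square distance over the 6 libraries of log2(FPKM + 1), each gene centred on its own DMSO mean. Nearest to Rrm1 were Pias1 (0.0113) and Crk (0.0164), and nearest to Rrm2 were Nle1 (0.0114) and Fam20b (0.0153). Rrm2b lay nearest to Pno1 (0.0247) and Fam83d (0.0248), and Tyms to Ifit1bl2 (0.0140) and Cmtr1 (0.0148). Dut lay nearest to Tmem147 (0.00954) and Cox6b1 (0.0131), and Dctd to Kdelr1 (0.0221) and Lrrc58 (0.0235). No enzyme was among the nearest genes of another, since enzymes were left out of the search. Dtymk lay nearest to Jpt1 (0.0189) and Arsa (0.0229), Samhd1 to Cct7 (0.0108) and Cbx6 (0.0108), and Shmt1 to Bag1 (0.0196) and Fastkd5 (0.0216). For scale, the median SE of a fold change over tested genes was 0.053.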

How the data were processed

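Libraries of 4T1 cells given DMSO or BRQ, 3 each, were grouped by the labels' treatment. Per the labels' protocols, total RNA was extracted with TRIzol. The submitters' processing notes name fastp, HTSeq and build GRCm39. Aligner, annotation release and strand setting were not stated there or in the labels. The authors deposited FPKM, not pooled. Another 8 columns, of no sample of this series, were not used.

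The 10552 genes averaging 1 FPKM or more were tested two-sided on log2(FPKM + 1) by limma 3.58.1 (R 4.3.3; lmFit, then eBayes with its trend option), with Benjamini-Hochberg adjustment over them all. Fold changes on this scale understate those of low genes. FPKM steps gave whole reads for all tested genes, within 0.000459 reads (tolerance 0.01), used for depth and for limma-voom. The script was tested on simulated data with 200 changed genes, far fewer than were called here.

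The members and lists were chosen with earlier results of these data known. Named genes are the 9 members, up to 4 called genes per list with the largest change, genes compared directly with a member by role, and the 2 genes nearest each member. A gene that this rule names is not reported here. Levels of Krt8, Cdh1, Epcam, Cd68, Cd14, Lyz2, Ctss, Adgre1 and Csf1r come from marker lists, and Pcna, Pola1, E2f8, Gsr, Cdk1, Ccna2 and Trp53 were added after their values were seen. Genomic spans, shared exons and upstream windows came from annotation on GRCm38, joined by symbol, and coordinates are on that build. Of 210 list genes 206 were in the table. Alternatives were another pseudocount and filters, 2 scalings (median-ratio and quantile), a replicate block, leaving out single libraries, BRQ replicate 1 alone, limma-voom and span matching.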

Additional observations from a re-analysis of the deposited data

How the results depend on the processing

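Relative to the 500 tested genes nearest in genomic span, Rrm2 turned to -0.10 and Tyms to -0.18, and the other 7 kept their sign. The cause was not tested. Counted in recovered reads, not per length, the differences between the groups were 2.94 percentage points for the Rrm2b share, 0.200 for Rrm2 over Rrm1 and 0.972 for Dut over Tyms, since that counts longer genes more. With each library left out in turn they ran from 1.45 to 2.18 points, from 0.359 to 0.379 and from 1.94 to 2.16. With any library left out, 9 of the 9 enzymes were called, beside 8385 to 8487 genes in all. The filter was applied anew in each of these fits, so the number tested can differ from 10552. With all libraries, 8698 of 10552 genes (82.4%) were called. With the replicate number as a block, 9 of 9 enzymes were called, beside 8619 of the 10552 tested genes. Deviations of libraries with the same number correlated at 0.00398, -0.0324 and -0.0345, DMSO replicates 2 and 3 correlated best with the BRQ library of the other number, and the numbers were not taken to pair the libraries. Depth limits the least counted enzyme, Dctd, to a counting error of 2.91%.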
